A study of Mus musculus with 2 samples.

Results

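The interferon-induced transmembrane genes Ifitm1, Ifitm2 and Ifitm3 were examined in mRNA-seq of mouse intestinal organoids treated with dextran sulfate sodium (DSS), a sulfated polysaccharide used to injure the intestinal epithelium. The members were taken by gene symbol from the deposited table, and all 3 were present among its 19294 genes. The set was selected on the counts of this same contrast, in which the members were lower after DSS, so their ratios are a description and not a test. The series holds 2 libraries, 1 from control organoids and 1 from DSS-treated organoids, both labelled day 4 and both of the genotype Lgr5-EGFP-IRES-creERT2, a reporter line that expresses EGFP and an inducible Cre from the Lgr5 locus. The organoids were grown from jejunal crypts in medium with EGF, Noggin and R-spondin, and the DSS concentration of the sequenced culture is not given in the sources used here. The labels do not say how many animals or cultures went into a library.

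IFITM proteins are small membrane proteins that hinder the fusion of enveloped viruses with the cell, and they share the CD225 domain. They are classical targets of interferon, which acts through receptors, JAK kinases and STAT and IRF transcription factors on promoter elements such as the interferon-stimulated response element (ISRE). Many tissues also express them without added interferon, and in the intestine they are known from the crypt, where stem and progenitor cells divide. Ifitm3 acts mostly in endosomes, whereas Ifitm1 resides largely at the cell surface.

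The promoter windows are shown because the 3 genes are neighbours on chromosome 7 that were all lower after DSS, while their windows differ in ISRE cores. Each window runs from 250 bases before to 50 bases after the annotated start and is taken from RefSeq on build GRCm38.p6. Capitals mark matches to the ISRE core, which was searched on both strands as 2 GAAA runs with any 2 bases between them.
Ifitm1, chr7:140967826-140968125, plus strand: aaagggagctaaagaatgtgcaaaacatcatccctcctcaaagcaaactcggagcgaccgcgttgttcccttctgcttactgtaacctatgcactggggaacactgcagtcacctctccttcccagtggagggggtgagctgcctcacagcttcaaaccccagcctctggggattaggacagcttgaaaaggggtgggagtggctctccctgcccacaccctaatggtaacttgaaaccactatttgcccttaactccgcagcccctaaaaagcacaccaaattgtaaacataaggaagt
Ifitm2, chr7:140955912-140956211, minus strand: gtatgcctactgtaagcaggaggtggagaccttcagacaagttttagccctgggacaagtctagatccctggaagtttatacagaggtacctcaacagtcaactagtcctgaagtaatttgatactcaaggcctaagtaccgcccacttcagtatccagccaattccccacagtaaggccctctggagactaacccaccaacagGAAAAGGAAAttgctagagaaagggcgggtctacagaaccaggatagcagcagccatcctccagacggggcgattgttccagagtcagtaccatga
Ifitm3, chr7:141010695-141010994, minus strand: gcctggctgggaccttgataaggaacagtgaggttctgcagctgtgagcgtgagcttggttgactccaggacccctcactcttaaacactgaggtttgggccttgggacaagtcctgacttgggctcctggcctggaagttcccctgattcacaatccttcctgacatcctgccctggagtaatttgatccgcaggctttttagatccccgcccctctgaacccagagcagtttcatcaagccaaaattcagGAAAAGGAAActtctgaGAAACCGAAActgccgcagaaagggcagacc

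The Ifitm3 window held 2 ISRE cores, the Ifitm2 window held 1 and the Ifitm1 window held 0. Each member had 1 window, and any other transcript start, such as among the 3 transcripts of Ifitm1, was not searched. Among all 32851 promoter windows of the same table, 3.44% held at least 1 core and 0.225% held 2 or more. Ifitm2 and Ifitm3 shared the core GAAAAGGAAA inside a common run of 13 bases, CAGGAAAAGGAAA. The core began 46 bases before the annotated start for Ifitm2 and 2 bases after it for Ifitm3. The Ifitm3 window also held 1 match to TTCNNNGAA, the core of the element bound by STAT dimers, and this match overlapped its second ISRE core. This shorter core occurred in 8.30% of all windows and in neither of the other members.

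Ifitm2 was by far the most abundant member and gave nearly all reads of Ifitm1, Ifitm2 and Ifitm3 in both libraries. It had 9220 counts without DSS and 1967 with DSS. Counts were divided by library totals corrected with TMM factors for composition and are given as CPM, the usual depth-scaled unit, in which the control level was 129 and the DSS level 36.0. The DSS level was 27.9% of that in the control, or 3.58-fold lower with a 95% counting interval from 3.41 to 3.76. On the log2 scale the ratio of DSS over control was -1.84, with an interval from -1.91 to -1.77. Each condition is a lone library, so the difference has no replicate check and no p-value is given, and all intervals describe counting error only.

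Ifitm3 showed the lowest ratio of the members. Its counts were 336 without DSS and 5 with DSS, which corresponds to 4.69 CPM and 0.0915 CPM. The log2 ratio was -5.68, with an interval from -7.31 to -4.44, so the DSS level was 1.95% of the control level. The DSS level was 51.3-fold lower, with an interval from 21.8 to 159. Of the 17235 genes that reached 10 counts in either library, called expressed genes from here on, 10 had a ratio this low, Ifitm3 included. Genes without DSS counts were not listed, so they could not enter this rank, and Ifitm3 reached 10 counts only in the control library.

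Ifitm1 was close to the detection limit in both libraries. There were 28 control reads and 3 DSS reads of it, or 0.391 CPM and 0.0549 CPM. The log2 ratio of -2.83 therefore had a wide interval, from -5.20 to -1.14, which corresponds to a level between 2.20-fold and 36.6-fold lower. The direction was the same as for the other members, but the size of the difference is poorly fixed by 3 counts.

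**Figure D1:**
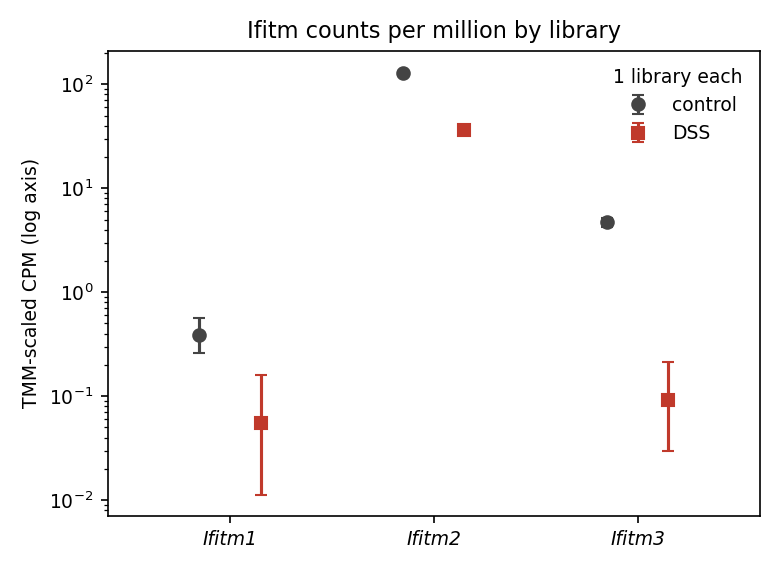
TMM-scaled CPM of Ifitm1, Ifitm2 and Ifitm3 (log axis) in the control library (circles) and the DSS library (squares), 1 library each, with 95% Poisson intervals for counting error. Each gene lies lower in the DSS library, and Ifitm3 lies at 0.0915 CPM after DSS, in the range of Ifitm1.

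All 3 members were at a log2 ratio of -1 or less, that is, 2-fold lower or more. Over the whole table, 20.2% of expressed genes were at -1 or less and 19.3% were at 1 or more, and the median log2 ratio was -0.06. When total counts replaced the TMM factors, 62.9% of the genes past either line were lower, in place of 51.1%, and all 3 members stayed at -1 or less. Ifitm1 and Ifitm3 also lay below the line at -2, where 6.54% of expressed genes were found (7.87% lay at 2 or more), and Ifitm2 did not. Since the contrast served to choose the members, these shares are given as background only. Among 2510 genes whose control count was within 2-fold of that of Ifitm2, 145 genes (5.78%) had a ratio as low as Ifitm2. Of the 2284 genes with a control count within 2-fold of that of Ifitm3, 5 were as low as Ifitm3. The corresponding number for Ifitm1 was 30 of 2384 genes, and each of these numbers includes the member itself. Genes without DSS counts were not listed and are missing from these numbers.

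**Figure D2:**
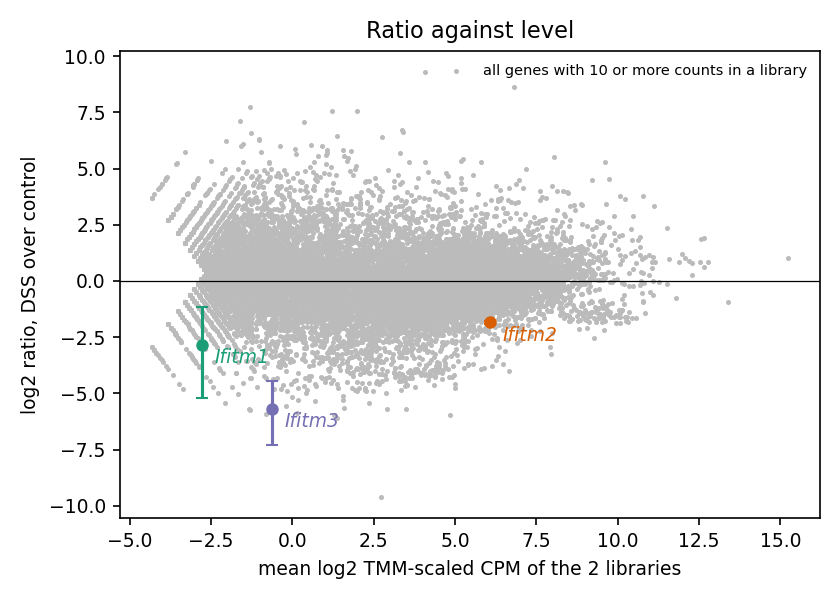
Log2 ratio of DSS over control against the mean log2 TMM-scaled CPM of both libraries, for 17235 expressed genes (grey points) and for the 3 IFITM genes with their 95% counting intervals (coloured points). Ifitm2 lies at -1.84 with other well expressed genes below it, and Ifitm3 lies among the lowest ratios of the table at -5.68.

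The ratios differed between members. The log2 ratio of Ifitm3 minus that of Ifitm2 was -3.84, with an exact interval from -5.48 to -2.60, and the library scaling cancels in this difference. In counts, there were 27.4 reads of Ifitm2 for each read of Ifitm3 in the control library and 393 in the DSS library. The difference of Ifitm3 from Ifitm1 was -2.85, with an interval from -5.28 to -0.07 that ended close to 0. Between Ifitm1 and Ifitm2, the difference was -0.99, and its interval from -3.36 to 0.70 included 0. The counting error of Ifitm1 thus does not separate it from Ifitm2.

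The make-up of the family therefore differed between libraries. Ifitm2 made up 96.2% of the summed counts of the 3 genes in the control library (Clopper-Pearson interval from 95.8% to 96.6%) and 99.6% in the DSS library (99.2% to 99.8%). The share of Ifitm3 was 3.51% in the control (3.15% to 3.89%) and 0.253% in the DSS library (0.0823% to 0.590%). For Ifitm1 the shares were 0.292% and 0.152%, and their intervals overlapped. Summed over the members, 9584 control reads stood against 1975 DSS reads, which gave -1.89 on the log2 scale (interval from -1.96 to -1.82). This sum is not changed by reads placed on the wrong member of the 3.

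Levels of different genes were compared per kilobase of transcript, with the GENCODE vM21 transcripts that carry the listed RefSeq accessions. In the control library the order was Ifitm2 with 197 CPM per kilobase, Ifitm3 with 6.92 and Ifitm1 with 0.444, and none of their counting intervals overlapped. Ifitm1 has 3 such transcripts, and its shortest, of 560 bases in place of 882, gave 0.699 CPM per kilobase and the same order. In the DSS library, Ifitm2 was at 54.9 CPM per kilobase, Ifitm3 at 0.135 and Ifitm1 at 0.0622. The intervals of Ifitm3 (0.0438 to 0.315) and Ifitm1 (0.0128 to 0.182) overlapped, so these neighbours in the order could not be told apart after DSS.

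The members are close paralogs, and the coding sequences were compared because shared reads could move counts between them. The coding length was 321 bases for Ifitm1, 435 for Ifitm2 and 414 for Ifitm3, and pairwise identity over aligned bases was between 80.8% (Ifitm2 and Ifitm3) and 81.9% (Ifitm1 and Ifitm3). The longest exact run common to the transcripts of Ifitm2 and Ifitm3 has 69 bases. It covers bases 130 to 198 of the Ifitm2 coding sequence and 133 to 201 of that of Ifitm3. Within it, the capitals mark the 40 bases that Ifitm1 also contains, at 96 to 135 of its coding sequence.
Longest run shared by Ifitm2 and Ifitm3: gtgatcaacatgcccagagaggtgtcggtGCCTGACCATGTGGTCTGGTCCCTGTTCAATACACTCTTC

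Read length and the handling of reads with several positions are not given in the sources used here, so exact sharing was counted for windows of 50, 75, 100 and 150 bases. With 50-base windows, 5.56% of Ifitm3 windows, 3.30% of Ifitm2 windows and 1.80% of Ifitm1 windows also occurred in another member. No window of 75 bases or longer was shared among the 3. Ifitm2 had copies elsewhere in the genome instead. At 75 bases, 13.1% of its windows were found in transcripts of genes at other loci, all of them annotated as processed pseudogenes, and at 100 bases this was 4.68% and at 150 bases 0%. For Ifitm3 and Ifitm1, the shares at 75 bases were 0.662% and 0.743%, both with the pseudogene Gm7676. Among the pseudogenes that share 50 bases or more, Gm11951 had 11 control and 15 DSS counts and Gm7676 had 1 and 5 counts, and the other 4 (Gm2840, Gm45308, Gm45432 and Gm8865) were not listed in the table. A further transcript model, Gm45717, overlaps Ifitm2 itself and was not listed. With this model counted, 42.0% of Ifitm2 windows were shared at 75 bases and 23.5% at 150 bases. The part of shared reads in the counts of Ifitm2 was not tested.

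**Figure D3:**
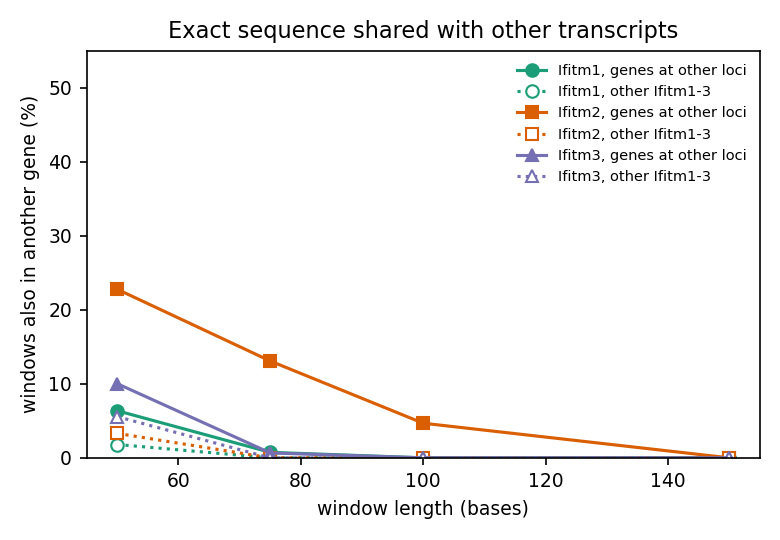
Share of sequence windows of each IFITM transcript that occur letter for letter in other annotated transcripts, by window length in bases. Solid lines count genes at other loci, including the other members. Dotted lines count only Ifitm1, Ifitm2 or Ifitm3 other than the gene itself. Sharing among the 3 members ends before 75 bases, whereas Ifitm2 still shares 13.1% of its 75-base windows with other loci.

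Of the other mouse IFITM genes, only Ifitm10 was listed. Ifitm10, a member outside the main cluster on chromosome 7, had 5 control and 4 DSS counts, and its log2 ratio of 0.07 had an interval from -2.27 to 2.28. Ifitm5, a bone gene, as well as Ifitm6 and Ifitm7 were not in the table, so their levels are not known here. The table lists no gene with 0 counts in either library, so a gene not listed can have been at 0 in only the DSS library, in only the control or in both. Of 7 further genes with a CD225 domain, only Prrt2, a presynaptic protein, was listed, with 19 and 16 counts.

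Upstream of the IFITM genes, none of 6 interferon ligand genes (Ifnb1, Ifnk, Ifne, Ifng, Ifnl2 and Ifnl3) was in the table, and their levels are not known here. The receptor genes, in contrast, were all well expressed, and 3 of 6 were at a log2 ratio of 1 or more (19.3% over all genes). These were Ifnlr1 at 1.28 and Il10rb at 1.12, which together form the receptor of type III interferon, and Ifngr1 at 1.21, a chain of the interferon-γ receptor. Ifnlr1 had 1133 control and 2103 DSS counts. The type I interferon receptor chains Ifnar1 and Ifnar2 were at 0.79 and 0.11, and Ifngr2 was at 0.43. When total counts replaced the TMM factors, 1 of 6 remained at 1 or more the median of the receptors was 0.70 in place of 0.96, and Ifnar2 lay below 0.

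Among 10 signal transducers, 3 were at 1 or more and none was at -1 or less, beside 19.3% and 20.2% of expressed genes. Irf1 and Irf7, transcription factors that are themselves induced by interferon, were at 1.82 and 3.25. The kinase Jak2 was at 1.26. Stat2 and Irf9, which act together on the ISRE, were at 0.69 and 0.40, and Irf9 had 717 and 721 counts. Tyk2, a kinase of the type I and type III receptors, was at 0.02 and Irf3 at -0.28. No transducer of this list was at -1 or less under TMM, DESeq2, total count or upper quartile scaling.

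Of 8 negative regulators, 2 were at 1 or more, a share of 25% beside 19.3% of expressed genes. These were Isg15, a ubiquitin-like modifier, at 2.33 (18 and 69 counts) and Socs3, a feedback inhibitor of JAK kinases, at 1.07, and 1 of 8 remained with total counts. Isg15 is also counted among the antiviral genes below, and without it Socs3 was the only regulator at 1 or more. Socs1 was at 0.89 with 74 and 105 counts. The phosphatases Ptpn2, which acts on JAK and STAT proteins, and Ptpn11 were at -0.73 and -0.12, and Pias1, an inhibitor of STAT signaling, was at -0.17.

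Other interferon-stimulated antiviral genes mostly had log2 ratios above 0 (38 of 47, or 30 of 47 with total counts). The median over all expressed genes was -0.06, or -0.31 with total counts, so more of them lay below 0 than above it. The list has 54 genes, of which 48 were in the table and 47 were expressed. Of these, 18 (38.3%) were at 1 or more and 5 (10.6%) were at -1 or less, beside 19.3% and 20.2% over all genes, and the median was 0.72 against -0.06 over all genes. With lines at 2 and -2, 8 were higher and 2 lower. Scaling by total counts reduced the median of the list to 0.47, beside -0.31 over all genes. It left 15 genes (31.9%) past the upper line of 1, and the number past the lower line did not change. Oasl1, an OAS-like protein that acts on Irf7 translation, had 1513 control and 7543 DSS counts and a log2 ratio of 2.71. Mx1, a GTPase that blocks viral ribonucleoproteins, was at 5.87 but rested on 10 counts in the control. Rsad2, which encodes viperin, was at 2.94 with 23 and 135 counts.

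The antiviral genes that were lower together with the IFITM genes were few. Gvin1, a very large interferon-inducible GTPase, was at -6.09 with 1516 and 17 counts, a ratio as low as that of Ifitm3. Bst2, or tetherin, which holds budding virions at the membrane, had 1236 control and 213 DSS counts. Its log2 ratio was -2.15 (interval from -2.36 to -1.94). That of Ifitm2 was -1.84 (interval from -1.91 to -1.77), and the intervals did not overlap. Ifit2, a translation inhibitor that binds viral RNA, was at -1.48 with 62 and 17 counts. The remaining genes at -1 or less, named after their values were seen, were Ifi44 at -1.81 with 23 and 5 counts and Oas1b at -1.25 with 84 and 27 counts.

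**Figure D4:**
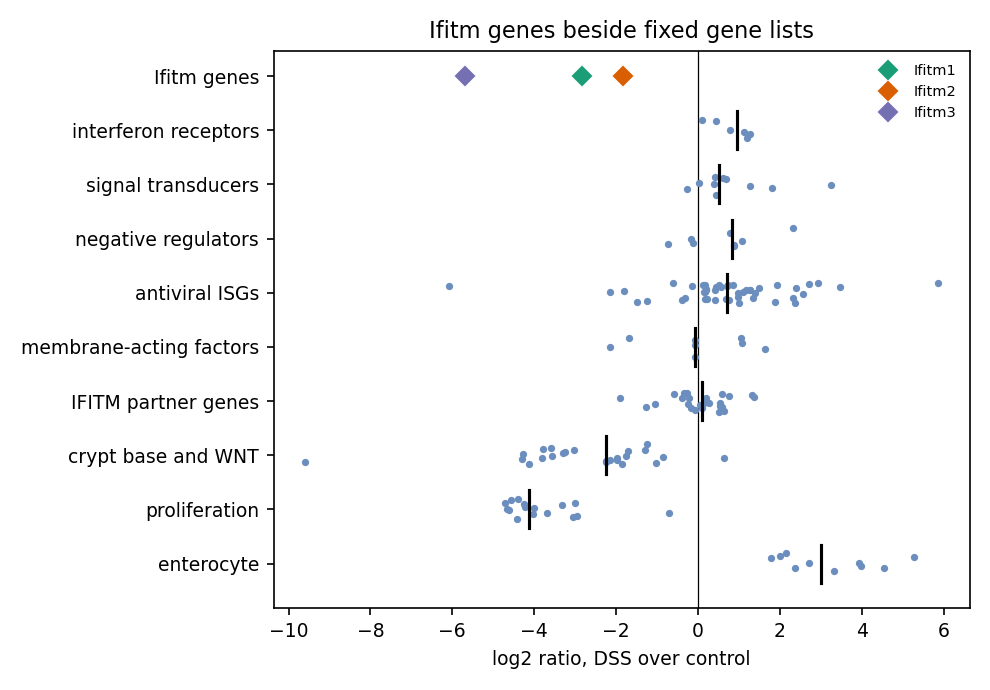
Log2 ratio of DSS over control for Ifitm1, Ifitm2 and Ifitm3 (diamonds) and for the expressed genes of 9 lists (points, spread vertically for legibility), with the median of each list as a vertical bar. ISG stands for interferon-stimulated gene. The IFITM genes lie to the left of all interferon receptors, transducers and negative regulators. They lie within the range of the antiviral ISGs and within that of the crypt base and WNT genes.

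A group of 9 genes acts on virus entry or release at membranes, as the IFITM proteins do, and 8 of them were listed. Of these 8, 2 were at -1 or less and 3 at 1 or more, beside 20.2% and 19.3% of expressed genes. The median was -0.07, or 0.02 with upper quartile factors and -0.32 with total counts, which left 1 gene at 1 or more. Bst2 is also counted among the antiviral genes above. Besides Bst2, the lower gene was Ly6e, a lipid-anchored surface protein that blocks coronavirus fusion and promotes the entry of some other viruses. It had 21156 control and 5011 DSS counts, or -1.69 on the log2 scale (interval from -1.73 to -1.64). Ncoa7, an interferon-inducible factor of endosomes, was at 1.65, and March8, a ubiquitin ligase that removes viral glycoproteins from the surface, was at 1.08. The remaining gene at 1 or more, Cd74, was at 1.05 with 12 and 19 counts, and its interval from -0.07 to 2.23 included 0. Serinc3 and Serinc5, which are incorporated into virions, were at -0.06 and -0.08. Both directions therefore occurred among the membrane-acting factors.

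Genes whose products modify, sort or bind IFITM proteins lay on both sides of 0. All 25 genes of this list were measured, of which 20 lay between -1 and 1, 3 at -1 or less and 2 at 1 or more, beside 20.2% and 19.3% of expressed genes past these lines. The median was 0.11, or -0.15 with total counts. Nedd4, the ubiquitin ligase that marks IFITM3 for degradation, had 56977 and 17933 counts and a log2 ratio of -1.28. The palmitoyltransferase Zdhhc2 was at -1.90. The tetraspanin Cd9 was at -1.05. Higher values were found for Abhd16a, which removes palmitate from IFITM proteins, at 1.32 and for Ap2a2, a subunit of the endocytic adaptor AP-2, at 1.37.

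The IFITM ratios were set beside crypt genes, since IFITM expression is known from the crypt. Of 24 crypt base and WNT response genes, 22 (91.7%) were at -1 or less, beside 20.2% of expressed genes, with a median of -2.24. Axin2, a feedback inhibitor of WNT signaling, and Ascl2, a stem cell transcription factor, were at -4.26 and -4.31, and Prom1, a membrane protein of stem cells and progenitors, was at -0.86. The WNT deacylase Notum was the gene above 0, at 0.64. Of 16 proliferation genes, 15 were at -1 or less (20.2% of expressed genes), with a median of -4.12, and Pcna, the replication clamp, was at -0.71. The ratio of Ifitm2 was thus less negative than the median of either list, and that of Ifitm3 was more negative. In bulk RNA, fewer cells of a type and less RNA per cell cannot be told apart.

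Epithelial markers were abundant in both libraries. Epcam, the pan-epithelial adhesion molecule, had 67379 control and 52502 DSS counts, a log2 ratio of 0.03 that falls below 0 with total counts. Of 9 epithelial markers, 3 were at 1 or more (1 with total counts), beside 19.3% of expressed genes, and only the intestinal transcription factor Cdx2, at -1.35, was at -1 or less. Their median was 0.04, or -0.22 with total counts. All 10 enterocyte markers were at 1 or more (19.3% of expressed genes), with a median of 3.01, led by the apolipoproteins Apoa1 at 5.27 and Apoa4 at 4.54.

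IFITM genes are also strongly expressed by endothelial, mesenchymal and immune cells, and markers of these cells were therefore examined. Of 8 endothelial markers, 4 were listed, with a summed level of 10.004 CPM without and 12.9 CPM with DSS. Most of it came from Lyve1, at a log2 ratio of 0.06 (688 and 546 counts). Of the 3 expressed endothelial markers, the other 2 were at 1 or more, beside 19.3% of expressed genes. These were Tek at 3.40 (12 and 97 counts) and Pecam1 at 2.58 (12 and 55 counts). Cdh5, Kdr, Cldn5 and Plvap were not in the table. For 5 of 10 mesenchymal and muscle markers the sum was 6.66 CPM and 36.1 CPM, mainly from Vim, and Col1a2, Col3a1, Dcn, Lum and Myh11 were not listed. For 6 of 12 immune markers it was 12.5 CPM and 23.6 CPM, mainly from Cd68 and Itgam, and those not listed included Ptprc, Cd3e, Adgre1, Tyrobp and Coro1a. A marker at 0 counts in 1 or both of the libraries could not enter these sums. Of the 4 expressed mesenchymal and muscle markers, 2 were at 1 or more, and of the 3 expressed immune markers, 2 (1 with total counts). None of either group was at -1 or less, beside 19.3% and 20.2% of expressed genes past these lines. The summed level of Ifitm1, Ifitm2 and Ifitm3 was 134 CPM without and 36.1 CPM with DSS. The part of these cells in the IFITM counts was not tested.

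The IFITM cluster was then compared with its chromosomal neighbours. In the RefSeq annotation of GRCm38.p6, Ifitm5, Ifitm2, Ifitm1, Ifitm3 and Ifitm6 follow each other, with the pseudogene Gm7514 and the lncRNA Gm33504 between Ifitm1 and Ifitm3. Gm7514 had 1 count in each library. Besides the members, 17 listed genes were taken from the cluster and from 8 genes on either side, and 15 were expressed. Their median log2 ratio was 0.28, 14 lay between -1 and 1, 1 was at -1 or less and none was at 1 or more, beside 20.2% and 19.3% of expressed genes past these lines. The nearest genes were Pgghg, a glucosidase, at -0.96 on the side of Ifitm2 and B4galnt4, a glycosyltransferase, at -0.46 on the side of Ifitm3. Further out, Nlrp6, an inflammasome receptor of the gut epithelium, was at 0.60 with 24320 and 28240 counts, and Sigirr, an inhibitory receptor of the interleukin-1 family, was at 0.86. The remaining gene below -1 was the pseudogene Gm5905, at -1.81.

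**Figure D5:**
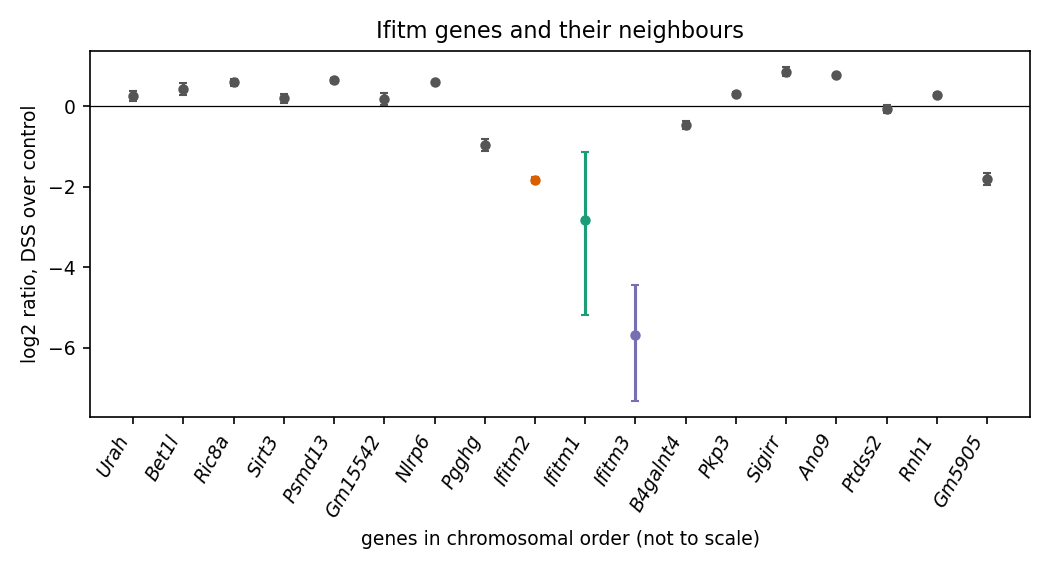
Log2 ratio of DSS over control, with 95% counting intervals, for the IFITM genes (coloured) and listed expressed neighbours (grey), in chromosomal order and not to scale. The 3 IFITM genes form a dip between Pgghg at -0.96 and B4galnt4 at -0.46, and apart from the pseudogene Gm5905 all other neighbours lie above -1.

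The genes most like each member were those at the smallest Euclidean distance in log2 CPM over the 2 libraries, a measure that only compares a control and a DSS level. Nearest to Ifitm2 were Nop58, a core protein of box C/D snoRNPs, at a distance of 0.06 with 9446 and 1902 counts, and the amino acid transporter Slc1a4 at 0.09 with 9803 and 1931 counts. The mitochondrial ATPase Atad3a, the transcription factor Maz and the mitochondrial serine hydroxymethyltransferase Shmt2 followed, at distances from 0.16 to 0.19. The genes nearest to Ifitm3 lay further away than those nearest to Ifitm2, but its DSS level rests on 5 counts, so single reads shift these distances. The nearest was the axonemal dynein Dnah8, at a distance of 0.34 with 314 and 4 counts, followed by Gm14851, Gm31291, Lockd and 2610318N02Rik at 0.60 to 0.85. For Ifitm1, the nearest genes were Gm6625 and Gm8341, each with the same 28 and 3 counts, then Gm18078, 1700112D23Rik and Proca1, a list that reflects low counts.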

How the data were processed

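Raw counts per gene, as deposited by the authors, were used for 1 control and 1 DSS library of stranded poly(A) RNA. The submitters' processing notes name HISAT2 and StringTie without roles, and the genome build, read length and strand setting are not given in the sources used here. The single-sample files are named as FPKM but equalled the table of counts for all 19294 genes.

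The libraries held 65493032 (control) and 59746968 (DSS) counts, with TMM factors of 1.09 and 0.915 (edgeR 4.0.16, R 4.3.3). Log2 ratios carry exact Clopper-Pearson 95% intervals, levels carry Poisson intervals, and differences between members carry exact conditional odds ratio intervals. There was no test, since each condition is a lone library. CPM values were computed from the counts and TMM factors. Expressed genes reached 10 counts in either library. Members and lists were chosen with earlier results of these data known. Genes were named as the members, their family and neighbours, the 3 highest and 3 lowest genes of each list that reached 50 counts in either library, and the 5 nearest genes in level, and not every such gene is given. Stat2, Ifi44, Oas1b, Epcam and Cd74 fall outside this rule, as do the pseudogenes that share windows and the marker genes not in the table. All of these were named after their values were seen. Some genes of the lists are not reported here. Code was tested on simulated data. Transcripts came from GENCODE vM21 (GRCm38) and promoters from RefSeq. Python 3.11.15, numpy 2.4.6, scipy 1.17.1, pandas 2.3.3 and matplotlib 3.10.9 were used. Alternatives included DESeq2 1.42.0 size factors.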

Additional observations from a re-analysis of the deposited data

How the results depend on the processing

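The direction of Ifitm1, Ifitm2, Ifitm3 and their sum was the same with total counts, with DESeq2 or upper quartile factors, after thinning the deeper library and with a prior count of 2. Ifitm1 ran from -3.09 to -2.20 and Ifitm3 from -5.94 to -5.21 on the log2 scale. Ifitm2 moved to -2.10 with total counts and to -1.75 with upper quartile factors, and the sum to -2.15 and -1.80. The median of all genes was -0.31 with total counts and -0.06 with TMM factors, a shift that applies to every gene alike, so Ifitm2 lies below -2 only with total counts. Differences between members are free of it. With lines at 2 and -2, 1127 genes were lower and 1356 higher, against 3486 and 3330 with lines at 1 and -1. The lower genes were 51.1% of those past the lines at 1 and -1, and 62.9% with total counts. Of the list counts under alternatives, 110 stayed within 1.5 times the main count and 18 did not, most of the latter with lines at 2 and -2. Many of the 110 were counts of 0 that stayed at 0. Some of these came from lists without an expressed gene, which could not change, so 110 against 18 is no measure of stability. No paired analysis was possible because each condition is 1 library, and no replicate could be left out. Depth limits Ifitm1 and the DSS value of Ifitm3, which rest on 3 and 5 counts.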

Other observations

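The ISRE cores of the Ifitm2 and Ifitm3 promoter windows were also looked for in the windows of the expressed genes matched to a promoter window. Of 426 of these genes with a core, 17.1% were at a log2 ratio of -1 or less and 24.2% were at 1 or more. Among 11867 genes whose windows lacked it, these shares were 18.6% and 19.4%. The medians were 0.02 and -0.04. A match is a run of letters and not a measured site, and no test was made of these shares.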
